A study of Mus musculus with 8 samples.

Results

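The genes described here are 33 mouse chemokine ligand genes, chosen by gene name from a list of CC, CXC, CX3C and XC family members and matched in a table of 35275 genes. They were measured by bulk RNA sequencing in 8 mouse tumours. All 8 came from mice with conditional (floxed) alleles of Nf2 and Cdkn2a, in which Cre recombinase was supplied by an adenovirus given by injection into the peritoneum. Nf2 and Cdkn2a are tumour suppressor genes whose loss is used to model mesothelioma, the cancer of the serosal lining. In 3 primary peritoneal tumours (19, 20 and 127) the labels give Pak2, a p21-activated kinase, as wild-type. In 4 primary peritoneal tumours (13, 14A, 59 and 61) they give Pak2 f/f, described as Pak2 -/- after Cre, and a secondary tumour, 14B, carries the same genotype label. The study asked how the transcriptomes of these genotypes differ. Cre from a virus recombines only the cells it enters, so each tumour also holds host cells with intact alleles, and in whole tumours fewer cells of a type and less RNA per cell cannot be told apart. The labels do not give strain, age or the time after injection, and they do not say whether the tumours within a group are from separate animals, so p-values measure the spread between these samples.

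Chemokines are small secreted proteins that direct the migration of cells, chiefly leukocytes, by binding G protein-coupled receptors. Many are induced in inflammation and draw monocytes, neutrophils, eosinophils or effector T cells into tissue, whereas others (Cxcl12, Cxcl13, Ccl19, Ccl21a) are made constitutively in lymphoid organs and stroma and set the position of lymphocytes and stem cells. Most inflammatory members lie in gene clusters, in mouse on chromosomes 5 and 11, and one receptor often binds several of them.

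Total counts per tumour were lowest in 14B, at 13469851, and highest in 14A, at 20402401. Levels are given as CPM, counts scaled to library size with trimmed-mean (TMM) factors. A count of 0 allows at most 3 counts, which is a floor between 0.139 and 0.193 CPM for the primary tumours and of 0.311 CPM for 14B. Pak2 itself, counted over the whole gene, stood at 128, 90.1 and 92.7 CPM in wild-type tumours 19, 20 and 127 and at 186, 238, 165 and 131 CPM in tumours 13, 14A, 59 and 61. It was thus higher in every primary Pak2-null-labelled tumour, against the label's direction (log2 fold change 0.82, SE 0.28; edgeR, Benjamini-Hochberg adjusted p = 0.267), and the deleted part of the gene is not given in the sources used here, so every direction below is between libraries labelled Pak2-null and wild-type. Libraries also differed in markers of other tissues. The summed level of 6 exocrine pancreas markers was 21434 CPM in tumour 14A and 156736 CPM in tumour 14B against at most 50.8 CPM elsewhere, with Prss1 at 0 counts in the other 6 tumours. The summed level of 8 skeletal muscle markers was 1860 to 19603 CPM in the wild-type tumours and 8.92 to 493 CPM in the 4 primary Pak2-null-labelled tumours. Mesothelial markers were detected in every tumour, at a summed 10.3 to 161 CPM.

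No chemokine ligand gene passed the test between the genotype labels, and the levels varied far more from tumour to tumour than between labels. Of the 33 genes, 28 passed the filter on low counts. In edgeR's quasi-likelihood test, 0 of these 28 passed a Benjamini-Hochberg adjusted p of 0.05 over 15412 genes, against 0.0714% of all tested genes, and 0 passed by limma-voom. In DESeq2 0 of 24 passed, since it gave no p for Cxcl13, Cxcl2, Ccl19 and Ccl3. At an unadjusted p of 0.05, 0 of 28 passed in edgeR, against 12.9% of all tested genes (0 higher in the Pak2-null-labelled tumours against 4.39%, and 0 lower against 8.55%). In DESeq2, 2 of the 24 (Ccl2 and Xcl1) passed an unadjusted p of 0.05, against 17.6% of all genes it tested. The lowest adjusted p in edgeR was 0.403, for Xcl1. With the filter used for both methods, Xcl1 was tested only through Pak2-null-labelled tumours, where it was high. Log2 fold changes (labelled Pak2-null minus wild-type) ran from -3.39 for Cxcl2 to 3.07 for Cxcl13. They were positive for 18 genes and negative for 10 (54.5% of all tested genes were positive), with a median of 0.76 against 0.06 over all tested genes. With limma-voom the median was -0.14. Among the tested genes, 0 of 28 had groups that did not overlap, against 14% of all tested genes.

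The spread was the larger part of the variation. The standard deviation of log2 CPM over the 7 primary tumours had a median of 1.59 for the 28 genes and 0.594 for all tested genes. The difference between the labels accounted for a median of 6.79% of the variance for the chemokine ligands and 15.2% for all tested genes. Tumour 59 held the highest level among the 7 primary tumours for 12 of the 28 genes, although it was highest for 6.21% of all tested genes. Tumour 13 held the lowest level for 13 of the 28, against 20.1% of all tested genes. Tumours 19 and 14A were each highest for 6 of the 28, near their shares over all tested genes (16.1% and 24.9%). Tumour 61 was highest for 2 (10.5% of all), and tumours 127 and 13 for 1 each (16.9% and 15.2%). Those numbers of genes were the same when levels were scaled by total counts alone.

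**Figure D1:**
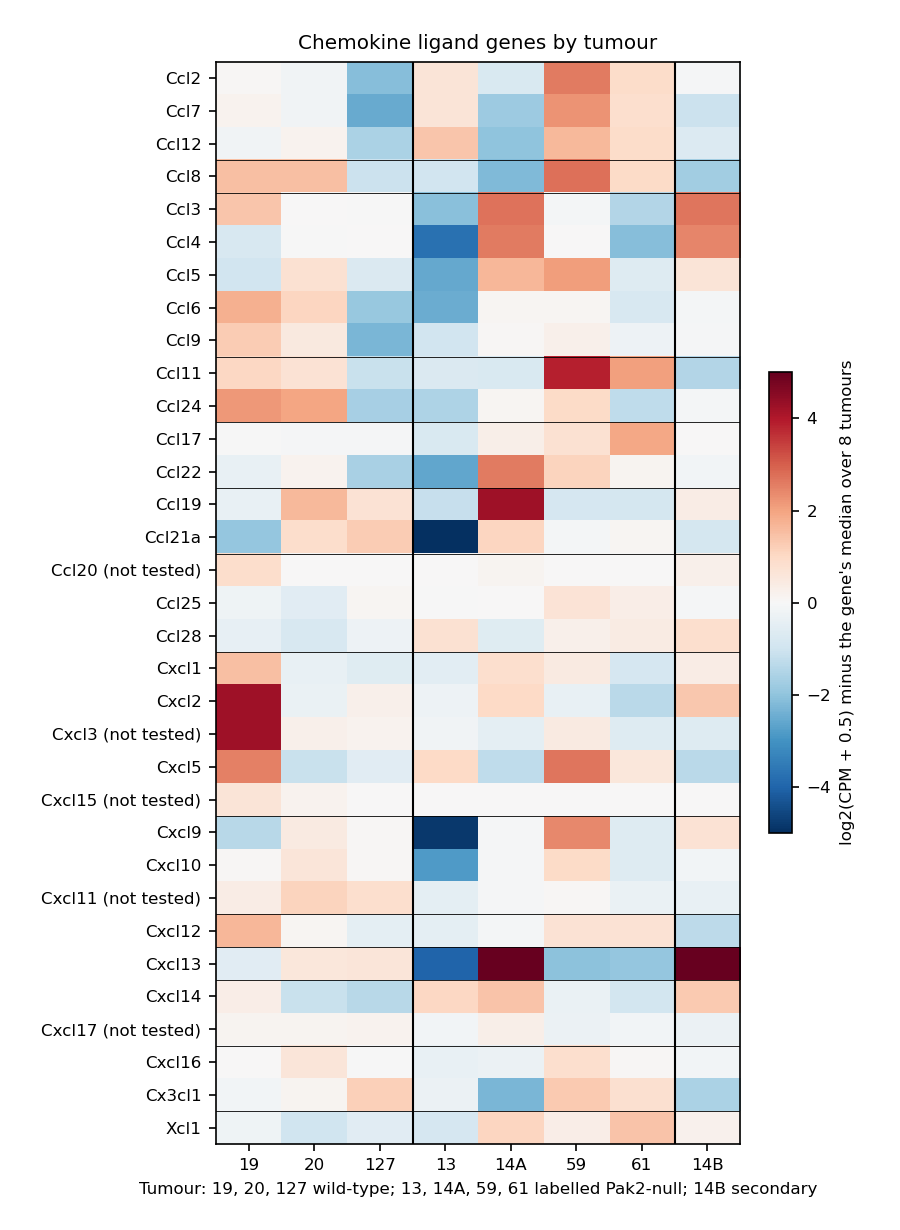
Heat map of the 33 chemokine ligand genes (rows, grouped by receptor) in the 8 tumours (columns), as log2(CPM + 0.5) minus each gene's median over the tumours, with colours clipped at 5 in either direction. High values for different groups of genes sit in different tumours: tumour 59 for Ccl2, Ccl7, Ccl12, Ccl8 and Ccl11, tumour 14A for Cxcl13 and Ccl19, and tumour 19 for Cxcl2 and Cxcl3.

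**Figure D2:**
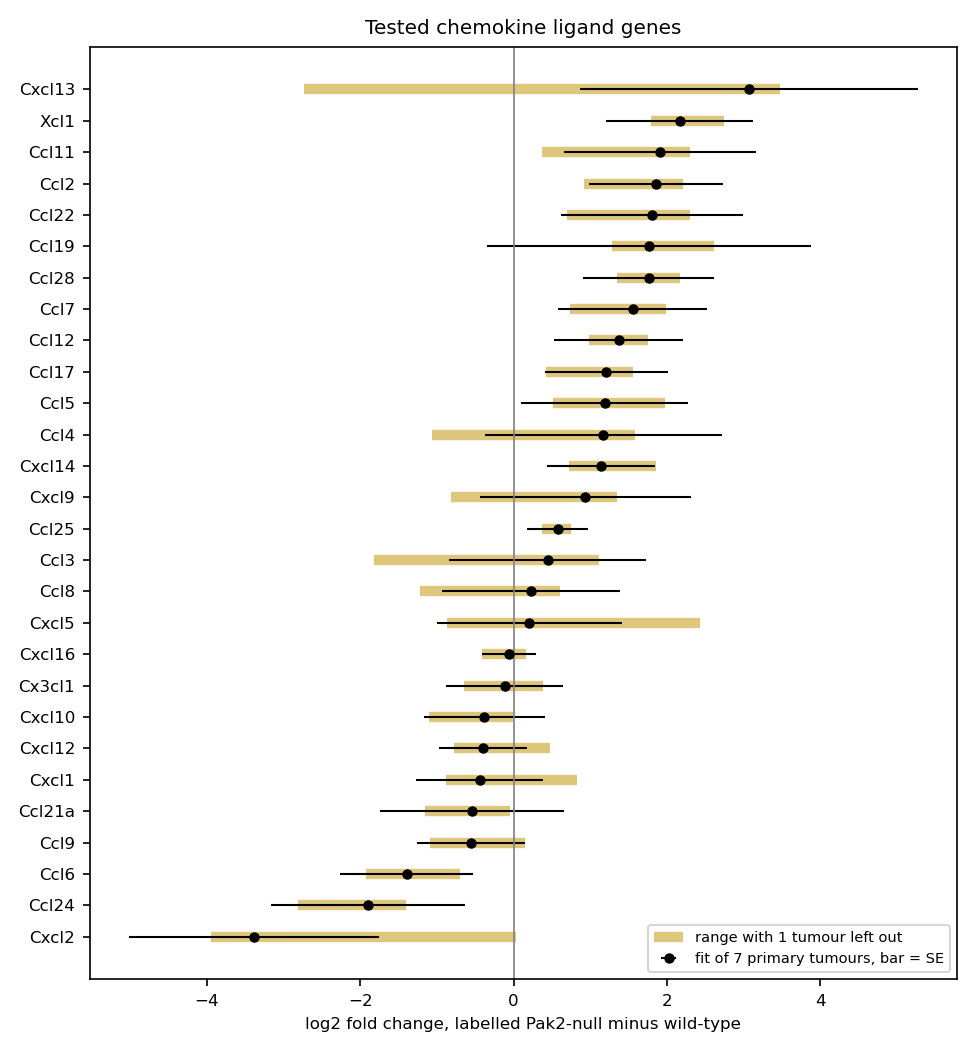
Log2 fold changes (x axis, labelled Pak2-null minus wild-type) of the 28 tested chemokine ligand genes (y axis). Points and black bars are the estimate and its SE from the 7 primary tumours, and wide bars are the range with 1 tumour left out, over the fits that tested the gene. For 12 of the 28 genes that range crosses 0.

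Comparing genes with each other needs a level per length, so CPM was divided by gene length in kilobases. Averaged over the 8 tumours, Cxcl13 led at 741 CPM per kb, followed by Cxcl14 at 308, Ccl8 at 226, Ccl6 at 114 and Ccl21a at 108 CPM per kb. The leading gene depended on the tumour. Ccl8 held the largest share of the summed level per length in tumours 19 (21.5%), 20 (25.2%), 59 (34.9%) and 61 (22.7%), Ccl21a in tumour 127 (33.3%), Cxcl14 in tumour 13 (55.5%) and Cxcl13 in tumours 14A (69.7%) and 14B (70.7%). In tumour 19, Ccl6 was level with Ccl8, at 21.4%. Cxcl13 led the mean only through tumours 14A and 14B: in the other 6 it stood between 4.28 and 115 CPM per kb, where Ccl8 stood between 53.2 and 774.

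Cxcl13, at chr5:95956928-95961067, is the ligand of Cxcr5 and draws B cells and follicular helper T cells into lymphoid follicles. Its level was 59.2, 132 and 135 CPM in wild-type tumours 19, 20 and 127. In the primary Pak2-null-labelled tumours it was 5.02 CPM in tumour 13, 3566 in 14A, 20.8 in 59 and 22.6 in 61, and the secondary tumour 14B had 3004 CPM. The tumours labelled Pak2-null therefore lay on both sides of the wild-type range, 1 above it and 3 below it. In tumour 14A, Cxcl13 alone took 0.340% of all counts (exact binomial 95% interval 0.338% to 0.343%, counting error only). It took 0.215% in tumour 14B and 0.000468% in tumour 13. The group means were 109 ± 43.1 CPM (SD, n = 3) and 904 ± 1775 CPM (SD, n = 4), with a log2 fold change of 3.07 (SE 2.20; edgeR, Benjamini-Hochberg adjusted p = 0.604). Without tumour 14A the log2 fold change was -2.74 (edgeR, Benjamini-Hochberg adjusted p = 0.111).

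B cell and macrophage genes were also high in tumour 14A. So were the T cell, natural killer cell and eosinophil marker sums given below, whereas neutrophil, mast cell and dendritic cell sums were highest in other tumours. Tumour 14A was the highest primary tumour for 24.9% of all tested genes. Cxcr5, the receptor, stood at 1.30, 9.37 and 2.12 CPM in wild-type tumours 19, 20 and 127, at 1.55, 36.3, 1.97 and 1.27 CPM in 13, 14A, 59 and 61, and at 6.95 CPM in 14B. The summed level of 6 B cell markers (all 6 with counts in every tumour except Pax5, at 0 in tumours 127 and 13) was 14.3, 119 and 14.2 CPM in the wild-type tumours and 2.60, 553, 27.5 and 8.55 CPM in tumours 13, 14A, 59 and 61. The 10 macrophage and monocyte markers, none at 0, summed to between 1831 and 5508 CPM in the other primary tumours and to 10361 CPM in 14A and 9835 CPM in 14B. The 7 fibroblast markers went the other way, with 1119 CPM in 14A and 1833 CPM in 14B against 7098 to 12306 CPM in the rest. From 14A to 14B, the ratio of CPM was 0.842 for Cxcl13, 0.949 for the macrophage sum and 0.326 for the B cell sum. As a share of all counts, Cxcl13 went from 0.340% in 14A to 0.215% in 14B. The part of these cell types in the Cxcl13 level was not tested.

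**Figure D3:**
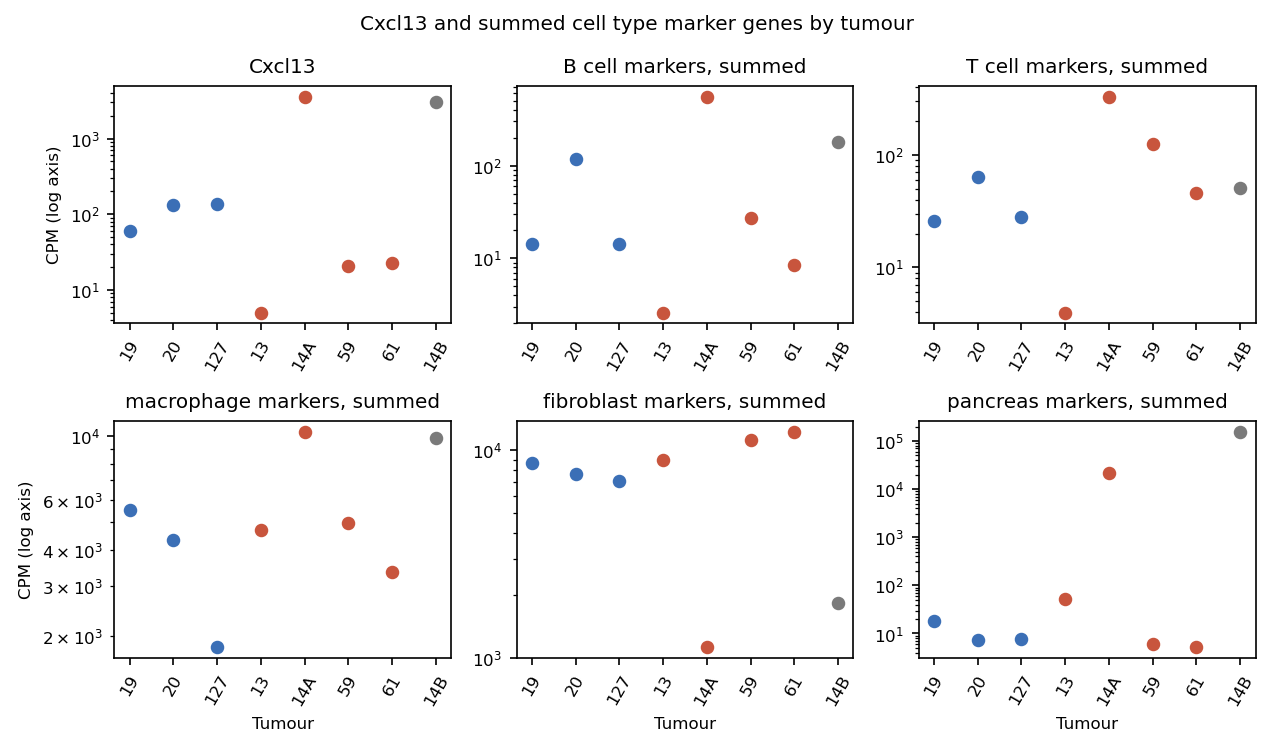
Cxcl13 and the summed levels of 5 lists of cell type marker genes (CPM, log axes) in each tumour (x axis; blue wild-type, red labelled Pak2-null, grey secondary tumour). Cxcl13 is high in 14A (3566 CPM) and 14B (3004 CPM), as are macrophage and pancreas markers, and fibroblast markers are lowest in the same tumours. B cell markers are highest in 14A (553 CPM) and lower in 14B (180.5 CPM), and so are T cell markers (330 and 50.5 CPM).

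The 250 bases before the RefSeq start of Cxcl13 and of the neutrophil attractants Cxcl2 and Cxcl3 are shown. They were picked because the high levels of these genes sat in 1 or 2 tumours. The windows also differ in whether they match the kappaB consensus searched here, 1 pattern for sites bound by NF-kappaB proteins. RefSeq promoter entries (GRCm38.p6) matched 23 of the 33 genes, with 24 windows. The windows shown are chr5:90903649-90903898 for Cxcl2, chr5:90785851-90786100 for Cxcl3 and chr5:95956689-95956938 for Cxcl13, all on the plus strand. Capitals mark the kappaB matches, where matches on the 2 strands overlap by all but 1 base.
Cxcl2: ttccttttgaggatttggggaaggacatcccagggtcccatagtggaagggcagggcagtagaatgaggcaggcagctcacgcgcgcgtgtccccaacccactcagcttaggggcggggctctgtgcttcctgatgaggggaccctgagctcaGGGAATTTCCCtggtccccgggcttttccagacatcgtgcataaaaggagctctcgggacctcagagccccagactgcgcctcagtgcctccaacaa
Cxcl3: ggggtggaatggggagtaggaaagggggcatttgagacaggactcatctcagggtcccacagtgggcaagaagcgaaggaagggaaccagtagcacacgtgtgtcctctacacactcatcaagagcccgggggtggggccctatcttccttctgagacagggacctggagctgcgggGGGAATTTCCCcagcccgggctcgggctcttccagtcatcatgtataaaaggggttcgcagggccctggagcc
Cxcl13: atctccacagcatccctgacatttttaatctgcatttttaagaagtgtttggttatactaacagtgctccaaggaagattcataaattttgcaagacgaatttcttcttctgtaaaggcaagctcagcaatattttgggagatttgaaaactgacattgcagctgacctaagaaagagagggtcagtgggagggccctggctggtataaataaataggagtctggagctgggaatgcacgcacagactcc
The forward match GGGAATTTCC begins 97 bases before the start of Cxcl2 and 73 before that of Cxcl3. Searched on both strands, the consensus was found in 6 of the 24 windows (Cxcl1, Cxcl2, Cxcl3, Cxcl10, Ccl9 and Ccl20) against 3.899% of 32851 windows of that length. The interferon gamma-activated site TTCNNNGAA was in 2 of 24, Ccl17 and Cxcl14, against 7.02%. The interferon-stimulated core GAAANNGAAA was in 3 of 24 (Ccl19, Cxcl10 and Cxcl14) against 2.977%. Cxcl13 had no match to any of these patterns in its window. Sites that depart from the patterns were not searched for, so the lack of a match does not show that NF-kappaB proteins have no site there.

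The ligands of Ccr7, which guides dendritic cells and naive T cells to lymph nodes, differed from each other. Ccl21a, made by lymphatic endothelium and lymphoid stroma, stood at 21.0, 151 and 198 CPM in wild-type tumours 19, 20 and 127 and at 1.55, 171, 74.9 and 87.8 CPM in tumours 13, 14A, 59 and 61. Only tumours 19 and 13 were low, 1 from each group, and the log2 fold change was -0.54 (SE 1.20). Ccl19 stood at 0.371, 2.92 and 1.35 CPM in the wild-type tumours and at 0, 20.6, 0.123 and 0.116 CPM in the Pak2-null-labelled tumours. Its log2 fold change of 1.77 (SE 2.11) rested on tumour 14A, since the 3 others were at or below the floor. Ccl19 was below the filter with only 14A left out, and with 14A and 19 both left out the log2 fold change was -4.59 (edgeR, Benjamini-Hochberg adjusted p = 0.0783). That fit was chosen after seeing the data, and Ccl19 passed its filter only through wild-type tumours 20 and 127, where it was high. The p-value is therefore no support for a lower level. In tumour 14B, Ccl19 was at 0.933 CPM, a ratio of 0.0454 to 14A. Both genes are uncertain, since near-identical copies exist: 4 of Ccl21a, all at 0 counts, and 3 of Ccl19, with at most 28 counts in a tumour. Ccr7 was at 3.89, 7.95 and 1.54 CPM in wild-type tumours 19, 20 and 127 and at 0.681, 43.5, 11.7 and 3.93 CPM in 13, 14A, 59 and 61. T cell markers, 8 in all with only Cd3d at 0 (tumour 13), summed to 25.9, 63.4 and 28.0 CPM in the wild-type tumours and to 3.96, 330, 125 and 46.2 CPM in tumours 13, 14A, 59 and 61, and their part in these levels was not tested.

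Ccl2, Ccl7, Ccl11, Ccl12 and Ccl8 lie together on chromosome 11, from 82035571 to 82116799, and all 5 were highest in tumour 59. Ccl2, Ccl7 and Ccl12 are monocyte attractants that act through Ccr2. Ccl7 stood at 44.6, 35.4 and 6.61 CPM in wild-type tumours 19, 20 and 127 and at 61.7, 10.9, 190.3 and 71.2 CPM in 13, 14A, 59 and 61. Tumours 127 and 14A were low and the groups overlapped, at 28.9 ± 19.8 CPM (SD, n = 3) and 83.6 ± 75.9 CPM (SD, n = 4). Ccl2 and Ccl12 also had their highest levels in tumour 59, at 209 and 51.8 CPM. Log2 fold changes were 1.86 (SE 0.87) for Ccl2, 1.55 (SE 0.97) for Ccl7 and 1.37 (SE 0.84) for Ccl12. Without tumour 14A they were 2.19, 1.92 and 1.75, with unadjusted p of 0.0235, 0.0408 and 0.00958 in edgeR and Benjamini-Hochberg adjusted p of 0.205, 0.270 and 0.144. In that fit 5 of 25 ligands passed an unadjusted p of 0.05 (these 3 with Ccl28 and Cxcl13), near the 16.9% of all genes that did so. Of these, Ccl28 passed the filter on low counts only through tumours 13, 59 and 61, where it was high. Ccr2 stood between 45.8 and 204 CPM in the wild-type tumours and between 77.4 and 142 CPM in the primary Pak2-null-labelled tumours.

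Ccl8, which signals through Ccr8 in mouse, stood at 167, 164 and 27.2 CPM in wild-type tumours 19, 20 and 127. In tumours 13, 14A, 59 and 61 it stood at 29.97, 12.1, 396 and 111 CPM. Both groups spanned more than their difference, with a log2 fold change of 0.23 (SE 1.16), and without tumour 59 it was -1.22. Ccl11, or eotaxin, which draws eosinophils through Ccr3, stood at 22.3, 17.9 and 4.56 CPM in the wild-type tumours and at 6.13, 6.01, 164 and 45.4 CPM in tumours 13, 14A, 59 and 61. Its log2 fold change was 1.91 (SE 1.25), and 0.37 without tumour 59. The other Ccr3 ligand, Ccl24, had its highest levels in tumours 19 and 20 (9.32 and 8.01 CPM), and a log2 fold change of -1.90 (SE 1.27). The 6 eosinophil markers summed to 7.09, 12.9 and 1.22 CPM in the wild-type tumours and to 1.05, 49.0, 11.3 and 13.1 CPM in tumours 13, 14A, 59 and 61. They were low in tumours 127 and 13, where Ccl11 was also low, and highest in 14A, where Ccl11 was low. Epx had 0 counts in 5 of the 8 tumours and Il5ra in tumours 127 and 13, and the part of eosinophils in the Ccl11 level was not tested. Over the 5 clustered genes the summed level was 1011 CPM in tumour 59 and 51.0 to 324 CPM in the other primary tumours.

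A separate stretch of chromosome 11, from 83525778 to 83664683, holds Ccl5, Ccl9, Ccl6, Ccl3 and Ccl4, inflammatory chemokines of macrophages and lymphocytes. Ccl6, a macrophage-derived chemokine and the highest of them per length, stood at 468, 286 and 36.3 CPM in wild-type tumours 19, 20 and 127. In tumours 13, 14A, 59 and 61 it stood at 24.3, 147, 146 and 78.3 CPM, and its log2 fold change was -1.39 (SE 0.86). Ccl9 was also highest in tumours 19 and 20, at 284 and 169 CPM, and had a log2 fold change of -0.56 (SE 0.71). Ccl3 and Ccl4, which are made by activated macrophages and lymphocytes, were instead highest in tumour 14A, at 29.7 and 44.6 CPM. The other primary tumours reached at most 11.5 CPM of Ccl3 and 7.19 CPM of Ccl4, and tumour 14B had 28.5 and 39.9 CPM. Without tumour 14A their log2 fold changes went from 0.45 to -1.81 and from 1.17 to -1.06. Ccl5, typical of activated T and natural killer cells, was highest in tumours 59 and 14A, at 49.7 and 36.9 CPM. Macrophage markers were also highest in 14A and 14B, as given for Cxcl13.

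The Ccr4 ligands Ccl17 and Ccl22 are products of dendritic cells and macrophages. Ccl22 stood at 4.45, 6.64 and 1.54 CPM in wild-type tumours 19, 20 and 127 and at 0.557, 38.2, 13.3 and 6.47 CPM in 13, 14A, 59 and 61. The log2 fold change was 1.81 (SE 1.19), and 0.70 without tumour 14A. In 14B, Ccl22 was at 5.29 CPM, a ratio of 0.138 to 14A. Ccl17 stayed between 0.433 and 5.54 CPM in all tumours.

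Of the Cxcr2 ligands, which attract neutrophils, Cxcl2 and Cxcl3 were high in wild-type tumour 19 alone. Cxcl2 stood at 23.6 CPM there and at 0.497 and 1.03 CPM in tumours 20 and 127. It stood at 0.557, 2.06 and 0.494 CPM in tumours 13, 14A and 59, and had 0 counts in tumour 61. Its log2 fold change was -3.39 (SE 1.63), and 0.037 without tumour 19. Cxcl3, too low outside tumour 19 to pass the filter, stood at 14.3 CPM in tumour 19 and at most 0.555 CPM elsewhere. Cxcl5 stood at 24.5, 1.55 and 2.44 CPM in wild-type tumours 19, 20 and 127 and at 8.17, 1.34, 27.7 and 6.06 CPM in 13, 14A, 59 and 61. It was thus high in 1 tumour of each group, with tumour 59 above tumour 19, and its log2 fold change ran from -0.87 without tumour 59 to 2.44 without tumour 19. Cxcl1 was 5.89 CPM in tumour 19, 3.49 CPM in 14A, 2.53 CPM in 59 and at most 1.24 CPM in the other primary tumours. Cxcr2 was 21.4 CPM in tumour 19 and 0.743 to 4.57 CPM in the other 7. The 8 neutrophil markers summed to 678 CPM in tumour 19, and also to 619 and 606 CPM in tumours 59 and 61, of which Mmp9 made up 523, 567 and 585 CPM. S100a9, an abundant neutrophil gene, was 45.9 CPM in tumour 19 and 90.7 CPM in 14A, and Ly6g had 0 counts in 5 of the 8 tumours. Their part in the Cxcr2 ligand levels was not tested.

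The interferon-induced Cxcr3 ligands, which attract effector T and natural killer cells, were lowest in tumour 13. Cxcl9 stood at 8.81, 33.1 and 25.3 CPM in wild-type tumours 19, 20 and 127 and at 0.372, 22.7, 131 and 15.1 CPM in 13, 14A, 59 and 61. Cxcl10 had its lowest value in tumour 13 (1.24 CPM) and its highest in tumour 59 (23.4 CPM). Log2 fold changes were 0.94 (SE 1.38) for Cxcl9 and -0.38 (SE 0.79) for Cxcl10, and without tumour 59 Cxcl9 was at -0.81. The third ligand, Cxcl11, was too low to be tested. It is named because, seen afterwards, it was the only one of the 33 genes whose groups did not overlap. Of all tested genes, 14% had groups that did not overlap. It stood at 0.510, 1.18 and 0.898 CPM in the wild-type tumours and at 0.0619, 0.257, 0.309 and 0.116 CPM in those labelled Pak2-null, from 1 to 19 counts per tumour. Cxcl10 and Cxcl11 overlap Art3 on the opposite strand, with up to 657 counts, so their reads cannot be told apart from its reads without a stated strand setting. A list of 16 interferon-induced genes summed to 163 CPM in tumour 13 and 425 to 1174 CPM in the other primary tumours. Of its 15 tested genes, 12 were higher in the Pak2-null-labelled tumours and 3 lower (54.5% of all tested genes were higher). None passed edgeR's adjusted test, and 0 passed an unadjusted p of 0.05, against 12.9% of all tested genes. T cell markers were lowest in tumour 13 as well, and their part in these levels was not tested.

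Cxcl12, the stromal ligand of Cxcr4 that retains stem cells and lymphocytes, stood at 681, 230.0 and 152 CPM in wild-type tumours 19, 20 and 127. In tumours 13, 14A, 59 and 61 it stood at 152, 201, 359 and 352 CPM, and in tumour 14B at 86.6 CPM. The group means were 354 ± 286 CPM (SD, n = 3) and 266 ± 105 CPM (SD, n = 4), a log2 fold change of -0.40 (SE 0.57), and 0.48 without tumour 19. Cxcl14, an epithelial and stromal chemokine, stood at 531, 194 and 159 CPM in the wild-type tumours. It stood at 873, 1131, 335 and 226 CPM in tumours 13, 14A, 59 and 61 and at 1045 CPM in 14B. Its log2 fold change was 1.14 (SE 0.71), and it was between 0.72 and 1.86 when any 1 tumour was left out. Tumours 61 and 59 lay inside the wild-type range, so the groups overlapped.

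Cxcl16 and Cx3cl1 are anchored in the cell membrane, and Cxcl16 also acts as a scavenger receptor. Cxcl16 was even across tumours, at 53.4, 78.7 and 50.6 CPM in wild-type tumours 19, 20 and 127 and 40.4, 42.2, 93.4 and 53.9 CPM in 13, 14A, 59 and 61. The log2 fold change was -0.06 (SE 0.35). Cxcl16 overlaps Zmynd15 on the opposite strand, with up to 669 counts. Cx3cl1 stood between 9.30 and 116 CPM with a log2 fold change of -0.12 (SE 0.76). Cx3cr1, its receptor, was 50.2 to 96.3 CPM in the wild-type tumours and 68.4 to 286 CPM in the primary Pak2-null-labelled tumours, with a log2 fold change of 1.02 (SE 0.50; edgeR, Benjamini-Hochberg adjusted p = 0.456).

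Xcl1, lymphotactin, is made by natural killer and T cells and attracts Xcr1-positive dendritic cells. It stood at 0.556, 0.124 and 0.321 CPM in wild-type tumours 19, 20 and 127 and at 0.186, 2.06, 1.05 and 2.83 CPM in 13, 14A, 59 and 61. Tumour 13 lay inside the wild-type range and the other 3 above it, at a log2 fold change of 2.17 (SE 0.96; edgeR, unadjusted p = 0.0568, Benjamini-Hochberg adjusted p = 0.403). Xcl1 passed the filter on low counts only through tumours 14A, 59 and 61, where it was high. Its p-values are therefore no support for a difference, and it was below the filter without 14A or without 61. Natural killer cell markers were also higher in those 3 tumours. Their summed level was 4.82, 11.5 and 7.06 CPM in the wild-type tumours and 10.2, 60.2, 48.8 and 29.6 CPM in tumours 13, 14A, 59 and 61. All 7 had a positive log2 fold change (54.5% of all tested genes did), 3 of them (Prf1, Klrb1c and Eomes) at an unadjusted p of 0.05 against 4.39% of all genes, and none passed edgeR's Benjamini-Hochberg adjusted test, with a lowest adjusted p of 0.147. Their part in the Xcl1 level was not tested.

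Of the epithelial ligands, Ccl25 stood at 2.42 to 4.04 CPM in the wild-type tumours and 3.78 to 6.48 CPM in the primary Pak2-null-labelled tumours, at a log2 fold change of 0.58 (SE 0.40). Ccl28 stood between 0.0621 and 1.18 CPM in the 7 primary tumours. Ccl20, Cxcl15 and Cxcl17 were not tested and had at most 9, 6 and 5 counts in any tumour.

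**Figure D4:**
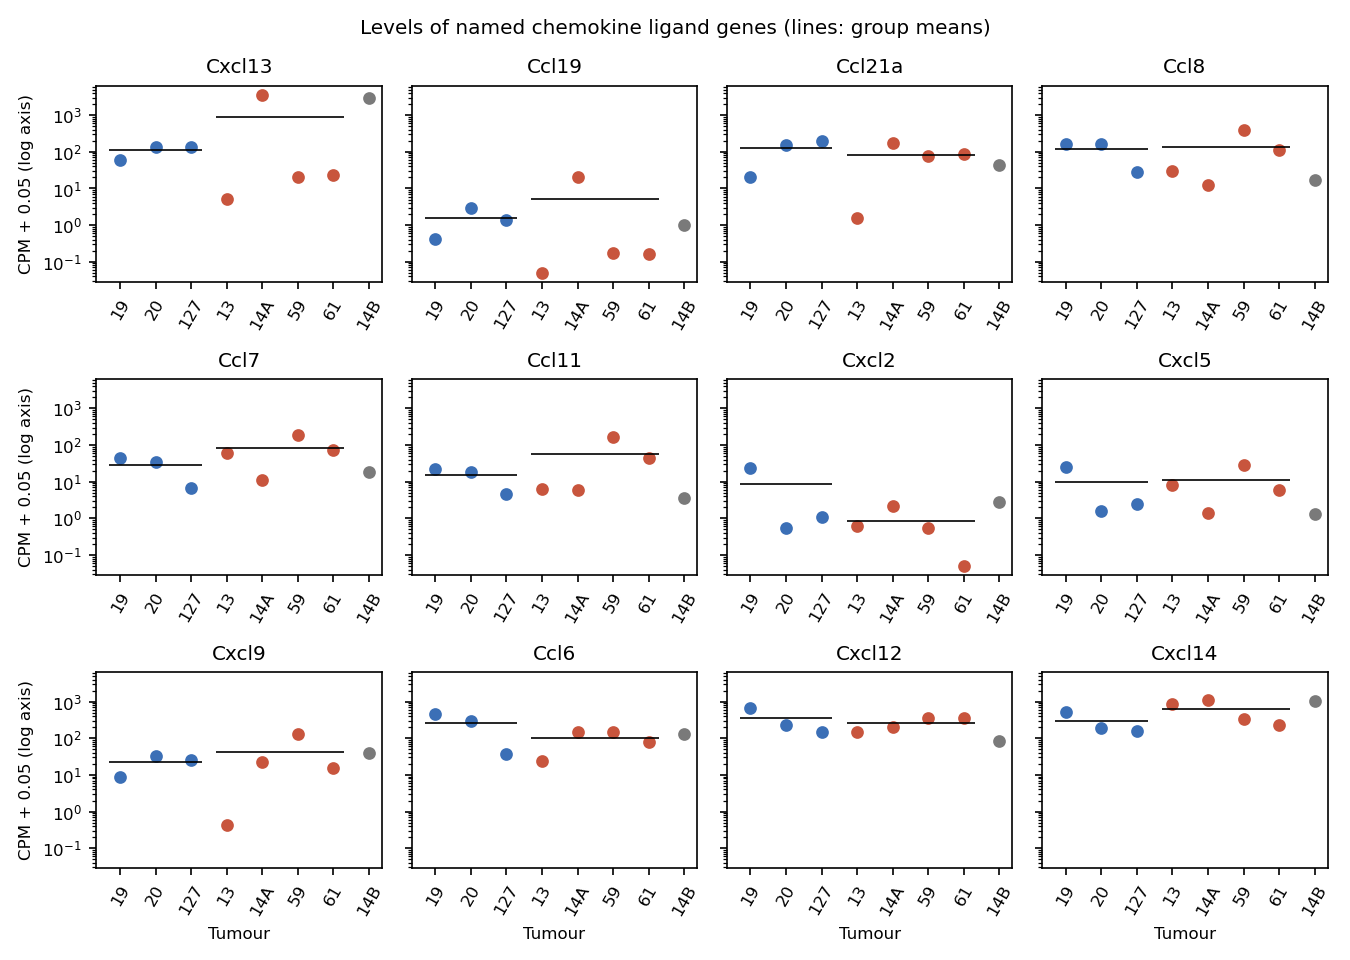
Levels of 12 chemokine ligand genes in each tumour (x axis) as CPM + 0.05 on a log axis; blue points are wild-type, red labelled Pak2-null primary and grey the secondary tumour 14B, and lines are group means. For Cxcl13 and Ccl19 the mean of the red points is set by tumour 14A, and for Cxcl2 the mean of the blue points by tumour 19.

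Among the receptors, 15 of 18 were tested. In the Pak2-null-labelled tumours 13 had higher and 2 lower levels (54.5% of all tested genes were higher), and the median log2 fold change was 0.85. In edgeR 0 receptors passed at an unadjusted p of 0.05, against 12.9% of all tested genes, and 0 after Benjamini-Hochberg adjustment, against 0.0714%. Ccr4, Ccr8 and Cxcr1 were too low to be tested. Together with the 5 atypical receptors, which bind chemokines without classical signalling, the median was 0.54, and without tumour 14A it was -0.33. Of the 13 NF-kappaB feedback and subunit genes, all 13 had positive log2 fold changes (54.5% of all tested genes did), 1 (Nfkbiz) at an unadjusted p of 0.05 against 4.39% of all genes, and none past edgeR's Benjamini-Hochberg adjusted threshold. Without tumour 14A, 5 of the 13 were positive, and the median went from 0.37 to -0.23. Their summed level was 2236 CPM in 14A, 586 to 859 CPM in the other Pak2-null-labelled primaries and 646 to 843 CPM in the wild-type tumours. Nfkbia, which encodes an inhibitor that NF-kappaB induces, stood at 134, 60.03 and 62.8 CPM in wild-type tumours 19, 20 and 127 and at 37.8, 564, 88.1 and 75.7 CPM in 13, 14A, 59 and 61.

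Between the secondary tumour 14B and the primary tumour 14A, 20 of the 28 tested genes lay within a factor of 2. Over all tested genes 81.7% did so. These are single tumours, so no test was possible, and the labels do not say whether they came from 1 animal. The 6 genes below that range in 14B were Ccl19, Ccl22, Ccl21a, Cxcl12, Ccl5 and Xcl1, and the 2 above it were Ccl12 and Ccl28. Over all 33 ligands, 0.540% of counts in 14A and 0.338% in 14B came from these genes, against 0.0982% to 0.280% in the other 6 tumours.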

How the data were processed

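RNA from frozen, pulverised tumours was purified on columns and sequenced as mRNA-enriched libraries, per the labels' protocols. The authors deposited raw read counts per gene with gene lengths in bases, 1 column per tumour. STAR, HTSeq and builds GRCm38 and mm10 are named in the submitters' processing notes; no source used here gives their versions or the strand setting. Coordinates are those of the deposited table. The table had 0 columns of other samples, 0 identical columns and 0 entries naming no gene; its 70 repeated gene names were resolved by identifier.

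Counts were fitted with edgeR 4.0.16 (R 4.3.3) on the 7 primary tumours, with TMM normalisation, filterByExpr (minimum count 10, minimum total 15), the quasi-likelihood test and Benjamini-Hochberg adjustment at 0.05 over 15412 genes. The SE was taken as the size of the log2 fold change over the root of its F statistic. CPM used the counts of the tested genes and TMM over all 8 tumours. Floors and intervals cover counting error only, since PCR copies are counted. Tumour 14B was described, not tested. The script was tested on simulated data. DESeq2 1.42.0, limma-voom (limma 3.58.1), other scalings, filters and sets of tumours were alternatives. BLAST 2.17.0 was used to look for near-identical copies (at least 95% identity over 80% of the copy).

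The members, lists and tests were chosen with earlier results of these data known. Named genes were those with an unadjusted p under 0.05 or groups that did not overlap, the highest per length in each receptor group, and those whose highest tumour reached 10 CPM and 10 times their median. Other ligands given with values were chosen after their values were seen.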

Additional observations from a re-analysis of the deposited data

Results flagged for a closer look

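In the 4 primary tumours labelled Pak2-null, tumour 14A stood apart from the other 3 for 4 of the 28 tested chemokine ligand genes: its distance to the nearest tumour exceeded Dixon's 95% critical value for the gap over the range. The nominal rate of about 1 in 20 such groups holds for normally distributed values, and CPM was not transformed here. Over all tested genes, 8.11% stood apart in the same way with tumour 14A highest, and 14.1% in any tumour and direction. Cxcl13 was 3566 CPM in tumour 14A against 22.6 CPM in the nearest. Ccl19 was 20.6 CPM against 0.123 CPM. Ccl4 was 44.6 CPM against 7.16 CPM, and Ccl3 was 29.7 CPM against 3.76 CPM. In the secondary tumour 14B, Cxcl13, Ccl4 and Ccl3 stood near their 14A levels (3004, 39.9 and 28.5 CPM), whereas Ccl19 was 0.933 CPM.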

How the results depend on the processing

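No chemokine ligand gene passed the adjusted test in those of the 15 alternatives that tested it. Of the 28 genes, 24 had a p in DESeq2 (not Cxcl13, Cxcl2, Ccl19 or Ccl3), 25 without 14A and 26 without 61. The number of all genes passing, 11, was 4 with all 8 tumours in 3 groups, 20 with a filter of CPM above 1 in 3 tumours, 1149 with DESeq2, 25 with limma-voom, 401 without tumours 14A and 19 (an alternative chosen after seeing the data), and 0 to 59 with 1 tumour left out (0 without tumours 20, 13, 59 or 61, 1 without 127 and 59 without 19). The number of ligands higher at an unadjusted p of 0.05, 0 in edgeR, was 2 with DESeq2 (against 7.11% of all genes), 4 without tumours 14A and 19 (10.4%), and 0 to 4 with 1 tumour left out (4 without 14A, 6.8%; 3 without 13, 3.76%). The number lower, also 0, was 2 with all 8 tumours (8.57%) and 2 with no filter (7.25%), both times Cxcl3 and Cxcl11, 3 without 14A and 19 (12.5%), and 0 to 3 with 1 left out (3 without 127, 6.52%; 1 each without 14A, 19 or 20, at 10.1%, 9.64% and 6.6%). Some genes in these numbers passed the filter only through the group where they were high. Among the higher genes these were Xcl1 (DESeq2, and without 13) and Ccl28 (without 14A). Among the lower genes they were Cxcl3 and Cxcl11 with all 8 tumours, Cxcl11 without 19, and Ccl19 and Cxcl11 without 14A and 19. The ligands' median log2 fold change reversed to -0.14 with limma-voom. The median over the receptors together with the atypical receptors, 0.54 in edgeR, reversed to -0.26 without 14A and 19. It ranged from -0.33 (without 14A) to 0.92 with 1 left out. With limma-voom, Ccl19 reversed to -1.53, Ccl8 to -0.48, Cxcl13 to -0.89 and Cxcl9 to -0.61. Without 14A and 19, Ccl19 reversed to -4.59, Cxcl12 to 0.61 and Cxcl13 to -3.03. With 1 tumour left out, log2 fold changes ranged from -1.22 to 0.61 for Ccl8, -0.77 to 0.48 for Cxcl12, -2.74 to 3.48 for Cxcl13, -0.42 to 0.17 for Cxcl16, -3.94 to 0.037 for Cxcl2, -0.87 to 2.44 for Cxcl5 and -0.81 to 1.35 for Cxcl9. The cause of these changes was not tested. Without length scaling, 8 of the 10 highest ligands were shared. Depth limits Ccl20, Cxcl15, Cxcl17 and Cxcl11, and it limits Cxcl3 outside tumour 19. No paired analysis was possible because the groups compared share no tumour number; 14B shares only the number 14 with 14A.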

Other observations

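The platelet chemokines Pf4 and Ppbp, which lie outside the 33 genes, were also highest in wild-type tumour 19. Pf4 levels were 139, 47.1 and 10.7 CPM in wild-type tumours 19, 20 and 127 and 48.4, 3.96, 56.5 and 49.2 CPM in 13, 14A, 59 and 61. Ppbp stood at 12.7 CPM in tumour 19 and at most 0.807 CPM in the other primary tumours, with a log2 fold change of -3.60 (SE 1.46; edgeR, Benjamini-Hochberg adjusted p = 0.36). Of the atypical receptors, Ackr1, the endothelial and red-cell chemokine sink, stood at 11.2, 9.81 and 1.67 CPM in the wild-type tumours and at 0.0619, 4.32, 1.60 and 1.04 CPM in tumours 13, 14A, 59 and 61, at a log2 fold change of -2.08 (SE 1.12; edgeR, Benjamini-Hochberg adjusted p = 0.497). Ccrl2 was 21.4 CPM in tumour 14A and 21.3 CPM in 14B, and 1.18 to 5.77 CPM in the other 6.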
